A study of Homo sapiens with 6 samples.

Results

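The enzymes that write, copy and erase DNA methylation, and the core of the Polycomb complex that methylates histone H3 at lysine 27, were examined in paclitaxel (PTX)-resistant MDA-MB-231 cells. MDA-MB-231 is an established human triple-negative breast cancer cell line. The 10 genes were named by their roles, with no threshold on a measured value: DNMT1, UHRF1, DNMT3A, DNMT3B, TET1, TET2, TET3, EZH2, SUZ12 and EED. All 10 were found among the 61015 genes to which the transcript counts could be summed, and all 10 were among the 20442 genes with enough counts to be tested.

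Cells selected for resistance to PTX, a drug that stabilises microtubules, had been separated by flow cytometry on the activity of aldehyde dehydrogenase (ALDH), a stem cell marker. The ALDH+ fraction was named BCSC (breast cancer stem cells) and the ALDH- fraction non-BCSC, and long non-coding RNA sequencing of total RNA was performed on 3 libraries of each. Per the cell line label all 6 libraries come from PTX-resistant MDA-MB-231, although the titles name the resistance for BCSC only. The titles set the groups, because the cell type label is the same for all 6 libraries. No source used here says that the replicates were separate cultures or sorts, so p-values measure the spread between these libraries only.

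Total counts were 15925943 to 21215352 in the BCSC libraries and 9898588 to 12263667 in the non-BCSC libraries. The libraries carried the mesenchymal markers of the line: CD44 stood at 2467 to 2781 CPM in BCSC and 1242 to 1628 in non-BCSC. KRT18, a keratin usually found in this line, was low, at 0.971 to 2.54 CPM against 10.1 to 12.4. CPM is the count of a gene in a library brought to 1000000 counts in all, after TMM scaling, which sets libraries to a common level. Genes of the olfactory receptor family, which serve as a measure of background because breast cells do not use them, summed to 39.5 to 151 CPM in BCSC and 538 to 1228 CPM in non-BCSC. The leukocyte marker PTPRC had 4 to 19 counts in BCSC and 160 to 256 in non-BCSC, and the 5 leukocyte markers summed to 3.001 to 4.01 CPM against 14.1 to 23.3. Another of them, the macrophage marker CD68, ran the other way, with 48, 50 and 26 counts in BCSC, against 0, 1 and 0 in non-BCSC (adjusted p = 0.0113 in edgeR). CD68 reached the test through its BCSC counts, so it could hardly be called lower. The endothelial marker CDH5 was lower in BCSC, with 284 to 687 counts against 465 to 1064 (log2 fold change -1.43, adjusted p = 0.00749 in edgeR), and so were DCN of fibroblasts (-3.01, adjusted p = 0.0147) and the hormone receptor PGR (-4.19, adjusted p = 0.00218). The erythroid gene HBB had 0 counts in each BCSC library and 9, 12 and 33 in non-BCSC. The part of this background in the results below was not tested, beyond the values given for each gene. In sorted bulk cells, a difference in the share of a kind of cell and a difference in RNA per cell cannot be told apart.

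DNA methylation in vertebrates sits mainly on cytosines that precede guanine (CpG). DNMT3A and DNMT3B place it on unmethylated DNA, DNMT1 copies it to the new strand after replication, and UHRF1 brings DNMT1 to the half-methylated sites. The TET dioxygenases oxidise 5-methylcytosine and so start its removal. Polycomb repressive complex 2 (PRC2), built from EZH2, SUZ12 and EED, methylates H3 lysine 27, a mark of silenced developmental genes.

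The maintenance pair UHRF1 and DNMT1 and the dioxygenase TET3 were higher in BCSC, TET1 was lower, and the other 6 genes did not pass the test. TET3 differed by 2.36-fold, UHRF1 by 1.93-fold and DNMT1 by 1.51-fold, while TET1 was 1.71-fold lower. With each library corrected for GC content and transcript length, TET1 alone of these 4 kept its direction and passed. In all, 4 of the 10 passed at an adjusted p under 0.05 in edgeR's quasi-likelihood test, and 29.9% of all tested genes did so. Higher in BCSC were 3 of the 10, against 15.3% of all genes, and lower was 1, against 14.6%. The median log2 fold change was 0.27 over the 10 genes, -0.05 over all tested genes and 0.18 over the 5661 genes that averaged 500 counts or more. Among those well-counted genes 42.0% passed, so the share of the 10 genes that passed was close to that background. TET3 alone also exceeded the 2-fold change that the study's RNA-seq methods require, a criterion met by 20.1% of tested genes, and by 8.85% in the direction of higher values in BCSC.

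**Figure D1:**
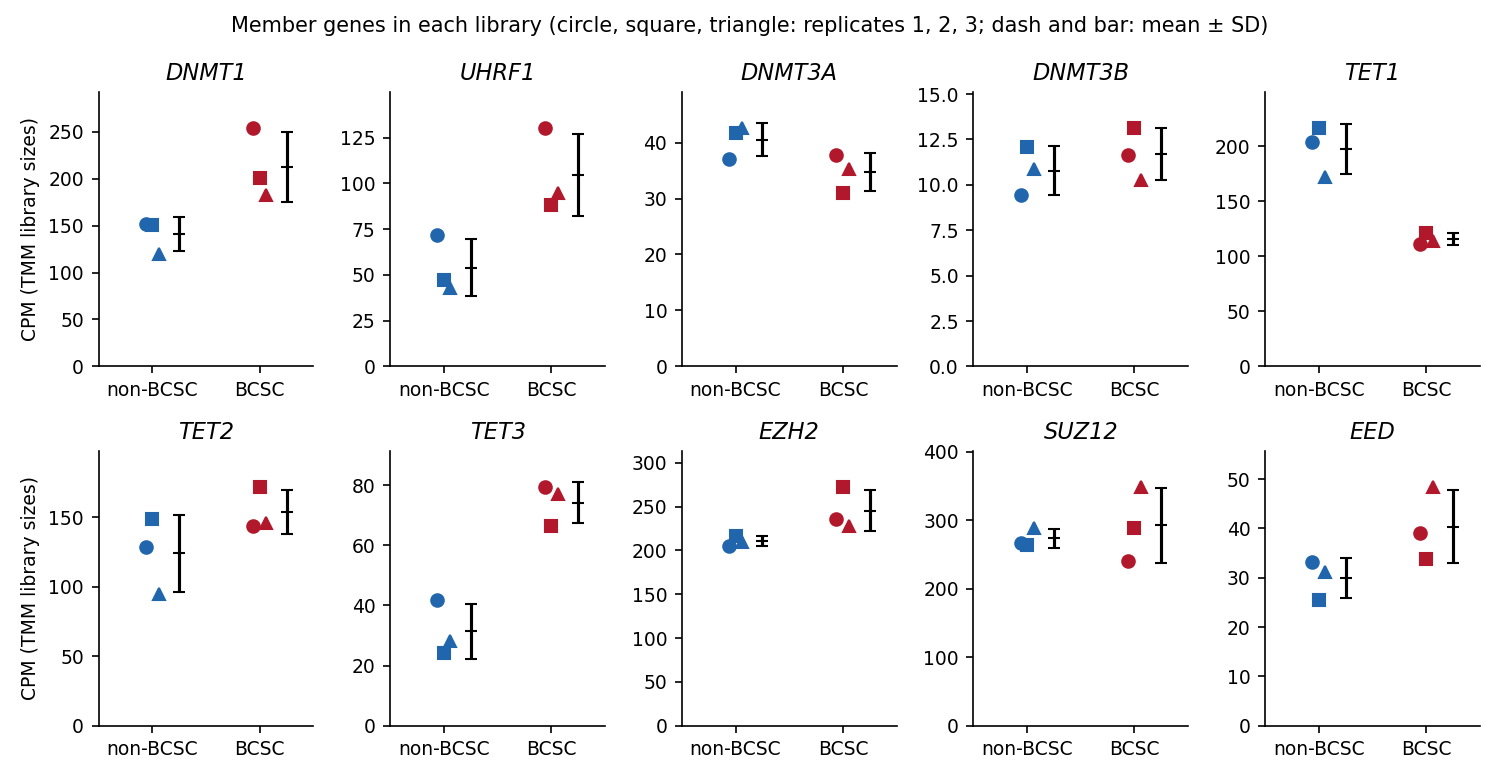
CPM of the 10 genes in each library, with 1 panel per gene, non-BCSC in blue and BCSC in red, symbols for replicates 1 to 3, and the mean ± SD (n = 3) beside the points; every vertical axis starts at 0. The BCSC points lie above all non-BCSC points for DNMT1, UHRF1, TET3, EZH2 and EED, below them for TET1, and among them for the other 4 genes.

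UHRF1 reads half-methylated CpG through its SRA domain and guides DNMT1 to it. It measured 130, 88.4 and 94.8 CPM in BCSC replicates 1, 2 and 3, and 72.1, 47.0 and 43.0 CPM in the non-BCSC replicates. The lowest BCSC library was above the highest non-BCSC library, and replicate 1 was the highest of its group on both sides. The means were 105 ± 22.6 (SD, n = 3) and 54.0 ± 15.8 CPM, a log2 fold change of 0.95 (SE 0.22, adjusted p = 0.0127 in edgeR, 95% interval 0.46 to 1.45). UHRF1 lies at chr19:4903080-4962154 on the plus strand of GRCh38.p14.

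DNMT1, the maintenance methyltransferase at chr19:10133346-10194953 on the minus strand, measured 254, 200 and 182 CPM in BCSC and 152, 150 and 120 CPM in non-BCSC. Again no BCSC library fell to the level of a non-BCSC library. The means were 212 ± 37.4 and 141 ± 18.0 CPM (SD, n = 3), with a log2 fold change of 0.59 (SE 0.15, adjusted p = 0.0167 in edgeR). These calls rest in part on single libraries. Without BCSC replicate 1 the log2 fold change of DNMT1 was 0.44 (adjusted p = 0.0669) and that of UHRF1 was 0.76 (adjusted p = 0.0515), both from edgeR. UHRF1 also missed the threshold without non-BCSC replicate 2 (0.90, adjusted p = 0.0514), and DNMT1 missed it without non-BCSC replicate 3 (0.51, adjusted p = 0.0561). The ratio of UHRF1 to DNMT1, each per length, was 0.638 ± 0.0763 in BCSC and 0.480 ± 0.135 in non-BCSC (SD, n = 3), and the groups overlapped.

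The 250 bases before a RefSeq start site of the 4 genes that passed are shown, because CpG in such windows is the substrate of these enzymes and the 4 windows differ in how much they hold. Capitals mark each CpG.
UHRF1 promoter, chr19:4909251-4909500, plus strand: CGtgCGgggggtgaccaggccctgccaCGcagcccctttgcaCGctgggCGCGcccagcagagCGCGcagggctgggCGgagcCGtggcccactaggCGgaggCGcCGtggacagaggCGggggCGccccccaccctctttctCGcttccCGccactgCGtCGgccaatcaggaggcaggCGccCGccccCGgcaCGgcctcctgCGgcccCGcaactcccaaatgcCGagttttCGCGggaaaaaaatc
DNMT1 promoter, chr19:10194954-10195203, minus strand: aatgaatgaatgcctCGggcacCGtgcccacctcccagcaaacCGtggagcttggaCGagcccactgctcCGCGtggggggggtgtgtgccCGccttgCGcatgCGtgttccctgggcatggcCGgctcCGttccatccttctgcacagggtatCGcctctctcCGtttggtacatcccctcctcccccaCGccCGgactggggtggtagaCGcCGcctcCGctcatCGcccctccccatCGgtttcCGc
TET1 promoter, chr10:68560087-68560336, plus strand: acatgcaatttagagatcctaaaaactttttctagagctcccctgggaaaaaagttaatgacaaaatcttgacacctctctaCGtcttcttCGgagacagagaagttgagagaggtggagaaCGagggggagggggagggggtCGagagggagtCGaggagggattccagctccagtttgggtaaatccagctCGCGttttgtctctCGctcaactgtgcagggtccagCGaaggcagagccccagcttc
TET3 promoter, chr2:73984660-73984909, plus strand: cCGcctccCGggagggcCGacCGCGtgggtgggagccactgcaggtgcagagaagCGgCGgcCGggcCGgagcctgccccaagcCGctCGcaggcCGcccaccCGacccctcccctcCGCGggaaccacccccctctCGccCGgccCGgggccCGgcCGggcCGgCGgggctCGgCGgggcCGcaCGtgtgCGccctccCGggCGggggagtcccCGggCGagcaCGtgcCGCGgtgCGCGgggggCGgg

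The windows hold 28 CpG at UHRF1, 21 at DNMT1, 9 at TET1 and 37 at TET3, and the median over the 35116 RefSeq windows of this length is 11. The TET1 window is thus the poorest of these 4. Among genes that did not pass, the windows hold 38 CpG at EZH2, 34 at TET2, 34 at SUZ12, 21 at DNMT3A and 11 at EED. A link between CpG content and the calls was not tested. The only window listed for DNMT3B, with 3 CpG, matched the start of no counted transcript of that gene. The letters TTTNNCGC, a form of the site bound by E2F factors that drive S phase genes, were searched on both strands. They occur at 2 places in the UHRF1 window, as TTTCTCGC and GCGGGAAA, and at 1 place in the SUZ12 window. They occur nowhere in the windows of the other 8 genes, among them the unmatched window of DNMT3B. Of all windows, 5.92% hold at least 1 match. UHRF1 has 3 windows listed, with 3 matches in all. The one shown was picked for its most counted transcript, UHRF1-208, which had 0 counts in each non-BCSC library. Methylation was not measured in these libraries.

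The de novo enzymes did not pass the test. DNMT3A measured 37.7, 31.1 and 35.3 CPM in BCSC and 37.1, 41.7 and 42.6 CPM in non-BCSC, and the groups overlapped. Its log2 fold change was -0.22 (SE 0.17, adjusted p = 0.343 in edgeR), with a 95% interval from -0.60 to 0.16. DNMT3B had the lowest level of the 10, with 11.6, 13.1 and 10.3 CPM in BCSC and 9.42, 12.1 and 10.9 CPM in non-BCSC. Its log2 fold change of 0.11 (SE 0.29, adjusted p = 0.785 in edgeR) has a 95% interval from -0.53 to 0.75, so that a 1.69-fold rise is within the precision of these libraries. In non-BCSC, DNMT3B stood at only 3.01 to 5.59 times the olfactory background for its length, taken as the mean over its annotated transcripts. That mean is 2489 bases, while its counted transcripts averaged 3849 bases, which would bring it closer to that background. DNMT3L, the cofactor of the de novo enzymes in germ cells, had 0 counts in all 6 libraries, which allows up to 3 counts in a library. That floor is 0.141 to 0.303 CPM before TMM scaling and covers counting error only.

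TET1 and TET3 differed in opposite directions. TET1 measured 111, 122 and 114 CPM in BCSC and 204, 217 and 172 CPM in non-BCSC, so that every BCSC library was below every non-BCSC library by a wide margin. The means were 116 ± 5.37 and 198 ± 23.0 CPM (SD, n = 3), a log2 fold change of -0.78 (SE 0.12, adjusted p = 0.00211 in edgeR). TET1 lies at chr10:68560337-68694487 on the plus strand.

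TET3, at chr2:73983631-74135498 on the plus strand, gave the reverse picture. It measured 79.3, 66.4 and 76.9 CPM in BCSC and 41.7, 24.2 and 28.3 CPM in non-BCSC, and the groups lay apart. The means were 74.2 ± 6.90 and 31.4 ± 9.15 CPM (SD, n = 3), with a log2 fold change of 1.24 (SE 0.21, adjusted p = 0.00342 in edgeR). Both calls held in each of the 6 fits that left out 1 library, where the log2 fold change of TET1 was -0.84 to -0.66 and that of TET3 was 1.13 to 1.55. With GC content and length corrected TET3 was at 0.22 (adjusted p = 0.410 in edgeR) and did not pass. In non-BCSC, TET3 stood at 3.99 to 12.6 times the olfactory background for its mean annotated length of 4888 bases. Its counted transcripts averaged 11911 bases, which would bring it closer to that background.

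TET2, the family member without a CXXC domain of its own, measured 144, 172 and 146 CPM in BCSC and 128, 149 and 94.5 CPM in non-BCSC. Non-BCSC replicate 2 lay above 2 of the BCSC libraries, and the log2 fold change of 0.31 (SE 0.16, adjusted p = 0.177 in edgeR) did not pass. Per length, the 3 genes together gave 96.5 ± 6.01 TPM in BCSC and 105 ± 7.37 TPM in non-BCSC (SD, n = 3), and the groups overlapped. TPM is the count per kilobase brought to the same total in every library, which lets genes be compared with each other.

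Within that sum the make-up differed. TET1 was 32.7% ± 0.279 of TET mRNA in BCSC and 51.5% ± 3.03 in non-BCSC (SD, n = 3). TET3 was 18.8% ± 1.82 and 8.49% ± 3.01, and TET2 was 48.5% ± 1.69 and 39.98% ± 2.12. None of the 3 shares overlapped between the groups, but the 3 shares are not independent of each other. With GC content and length corrected, the TET3 shares overlapped, at 11.7 to 16.9% in BCSC and 10.3 to 13.8% in non-BCSC, while those of TET1 and TET2 did not. The ratio of TET3 to TET1 was 0.634, 0.517 and 0.574 in BCSC, against 0.245, 0.125 and 0.131 in non-BCSC. This ratio was chosen after the values of both genes were seen and was not tested.

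**Figure D2:**
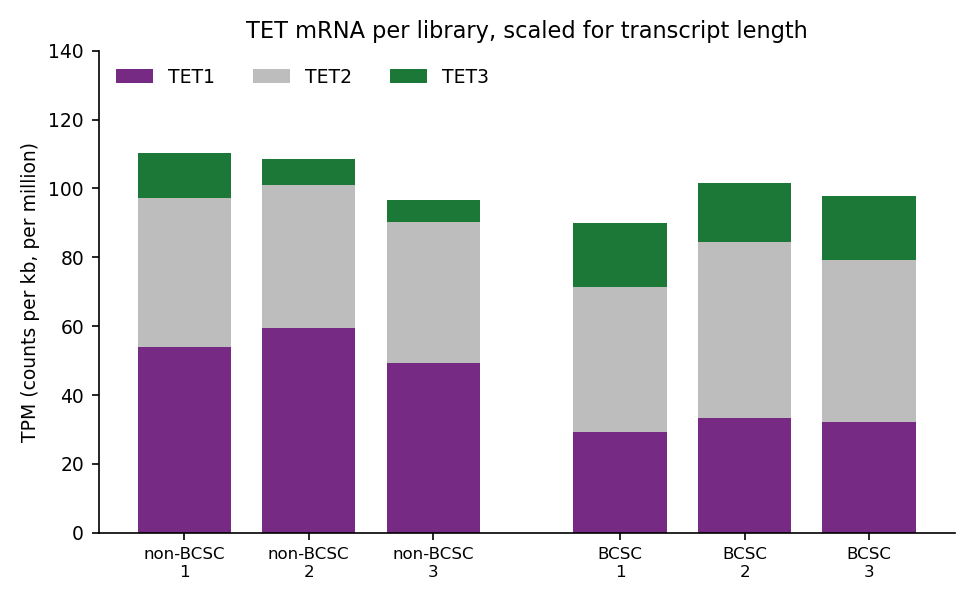
TPM of TET1, TET2 and TET3 stacked for each library, with non-BCSC on the left and BCSC on the right. The total height is 96.7 to 110 TPM in non-BCSC and 89.9 to 102 TPM in BCSC, while the TET1 block at the bottom is shorter and the TET3 block at the top is taller in every BCSC library.

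The sum of the 3 DNMT genes was 135 ± 14.6 TPM in BCSC and 102 ± 6.66 TPM in non-BCSC (SD, n = 3), and DNMT1 made up 82.9% and 76.5% of it. The ratio of the DNMT sum to the TET sum was 1.69, 1.26 and 1.29 in BCSC, against 0.946, 0.988 and 0.977 in non-BCSC. All BCSC ratios were above all non-BCSC ratios, with a log2 difference of 0.53. By exact two-sided permutation the p was 0.1, which is as small as 3 against 3 libraries allow, so the comparison cannot pass a threshold of 0.05. With GC content and length corrected the ratio turned to 0.898, 0.872 and 1.11 in BCSC, against 1.12, 1.56 and 1.75 in non-BCSC, a log2 difference of -0.60. The direction of this ratio therefore depends on the correction.

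None of the 3 core PRC2 genes passed the test. EZH2, the catalytic subunit at chr7:148807383-148884291, measured 235, 272 and 228 CPM in BCSC and 205, 217 and 210 CPM in non-BCSC. The groups did not overlap, yet the difference was small, with a log2 fold change of 0.22 (SE 0.10, adjusted p = 0.133 in edgeR) and a 95% interval from -0.01 to 0.45. EED, which binds the methylated lysine and stimulates the enzyme, measured 39.0, 33.7 and 48.4 CPM in BCSC and 33.1, 25.4 and 31.2 CPM in non-BCSC. Here too the groups lay apart, narrowly, and the log2 fold change was 0.43 (SE 0.20, adjusted p = 0.130 in edgeR).

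SUZ12, which holds the complex together, measured 240, 289 and 348 CPM in BCSC and 267, 264 and 289 CPM in non-BCSC. BCSC held both its lowest and its highest library, and the log2 fold change was 0.10 (SE 0.13, adjusted p = 0.614 in edgeR, 95% interval -0.20 to 0.40). Counting all 10 genes, 6 had groups that did not overlap, while 52.1% of all tested genes did not. The pseudogene SUZ12P1 held 368 counts over the 6 libraries, or 1.503% of those of SUZ12. Of the other genes that overlap a member or are named as its copy, S1PR2 on the strand of DNMT1 had the most counts for its member, at 2.38% of those of DNMT1. The antisense gene TET2-AS1 had 2 counts in all.

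EZH1 is the second catalytic subunit of PRC2, known for its use in cells that do not divide. It measured 29.9, 24.4 and 20.6 CPM in BCSC and 17.9, 11.7 and 9.14 CPM in non-BCSC, with a log2 fold change of 0.95 (SE 0.30, adjusted p = 0.0391 in edgeR). EZH1 passed in 6 of 14 alternative treatments and in 2 of the 6 fits that left out 1 library, and was at 0.38 (adjusted p = 0.238) with GC content corrected. Per length, EZH2 was 7.99, 11.97 and 11.3 times EZH1 in BCSC, against 13.5, 27.5 and 22.9 times in non-BCSC. The ratio was thus lower in each BCSC library, with a log2 difference of -0.99 and p = 0.1 by exact two-sided permutation, again the smallest possible. With GC content and length corrected the groups overlapped, at 12.4, 15.6 and 12.9 times in BCSC, against 11.8, 20.3 and 15.2 times in non-BCSC, a log2 difference of -0.18.

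Levels were compared between genes as TPM. In BCSC the order was EZH2 (243 ± 29.7 TPM, SD, n = 3), SUZ12 (184 ± 42.0), DNMT1 (112 ± 8.99), UHRF1 (71.9 ± 14.2), EED (59.1 ± 10.9), TET2 (46.8 ± 4.46), TET1 (31.6 ± 2.16), TET3 (18.1 ± 0.738), DNMT3A (13.3 ± 3.02) and DNMT3B (10.1 ± 2.82). The libraries of 4 neighbouring pairs overlapped within this order, namely EZH2 and SUZ12, UHRF1 and EED, EED and TET2, and DNMT3A and DNMT3B. In non-BCSC the order was EZH2 (206 ± 15.5), SUZ12 (170 ± 11.997), DNMT1 (78.0 ± 5.81), TET1 (54.2 ± 5.09), EED (44.3 ± 4.18), TET2 (41.9 ± 1.17), UHRF1 (37.02 ± 8.87), DNMT3A (16.6 ± 3.44), TET3 (9.02 ± 3.64) and DNMT3B (7.40 ± 0.513). There the overlapping neighbours were EED and TET2, TET2 and UHRF1, and TET3 and DNMT3B. TET1 thus ranked 4th in non-BCSC and 7th in BCSC, and UHRF1 ranked 7th and 4th.

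GC content moved with these differences. Among genes that averaged 500 counts or more, the median log2 fold change was -0.02 for transcripts under 40% GC, 0.05 at 40 to 45%, 0.29 at 45 to 50%, 0.60 at 50 to 55%, 0.98 at 55 to 60% and 1.26 above that. The counted transcripts of UHRF1 (56.2% GC), DNMT1 (54.7%), DNMT3B (54.7%), DNMT3A (53.9%) and TET3 (53.2%) lie in the GC-rich range. Those of EZH2 (43.4%), TET1 (42.1%), TET2 (40.9%), EED (38.6%) and SUZ12 (38.3%) lie in the GC-poor range. The gap between GC-rich and GC-poor genes, as the median centred log2 CPM at 55% GC or more minus that under 45%, was 0.98, 0.39 and 0.14 in BCSC, against -0.15, -0.63 and -0.65 in non-BCSC. It therefore separated the groups completely, and was most extreme in BCSC replicate 1.

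**Figure D3:**
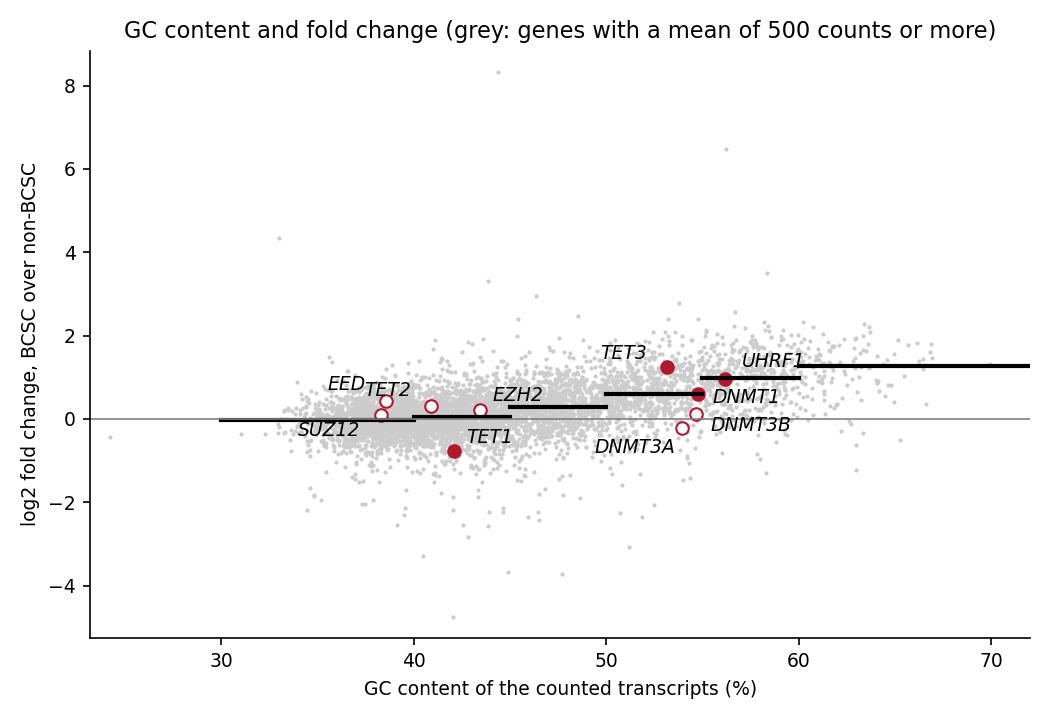
Log2 fold change (BCSC over non-BCSC, vertical) against the GC content of the counted transcripts (horizontal, %) for genes averaging 500 counts or more (grey) and the 10 named genes (circles, filled where the adjusted p was under 0.05), with black bars at the median of each GC bin. The bin medians climb from -0.02 to 1.26, UHRF1 and DNMT1 sit beside the bar of their bin, TET3 lies above it, and TET1, DNMT3A and DNMT3B lie below theirs.

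With each library corrected for GC content and transcript length, the calls changed for 8 of the 10 genes. TET1 kept its value (log2 fold change -0.74, SE 0.11, adjusted p = 0.0014 in edgeR). TET3 remained above 0 but did not pass (0.22, adjusted p = 0.410), and UHRF1 was at -0.25 (adjusted p = 0.189). DNMT1 was at -0.64 (adjusted p = 0.00366), so that its direction depends on this correction.

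After the same correction DNMT3A was at -1.41 (adjusted p = 0.00211 in edgeR) and DNMT3B at -0.98 (adjusted p = 0.0380), both lower in BCSC. The PRC2 core was higher, with EED at 1.06 (adjusted p = 0.00386), SUZ12 at 0.45 (adjusted p = 0.00699) and EZH2 at 0.45 (adjusted p = 0.00897). The corrected count was thus 3 higher and 4 lower, against 3 and 1 without it, and the 3 higher genes were not those higher before. The correction assumes that genes of one GC content do not differ on average between the groups. Whether GC content acts through the libraries or through the cells was not tested.

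Subtracting the olfactory background left TET1 at -0.96 (adjusted p = 0.00113 in edgeR), TET3 at 1.24 (adjusted p = 0.00741) and UHRF1 at 0.80 (adjusted p = 0.0278). DNMT1 was at 0.38 and no longer passed (adjusted p = 0.0677). The subtraction used the mean annotated length of each gene, which is shorter than its counted transcripts for all of the 10 but TET1. That length was 2860 against 5630 bases for DNMT1, 2648 against 8640 for DNMT3A and 4888 against 11911 for TET3. Less background was thus subtracted than the counted lengths would give. Over all 14 alternative treatments, TET1 passed in 14, with a log2 fold change from -0.96 to -0.66, TET3 in 13 and UHRF1 in 11. DNMT1 passed as higher in 10 and as lower in 1. TET1 is therefore the difference among the 10 that none of these treatments removed, apart from the added requirement of a 2-fold change, which it does not meet.

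**Figure D4:**
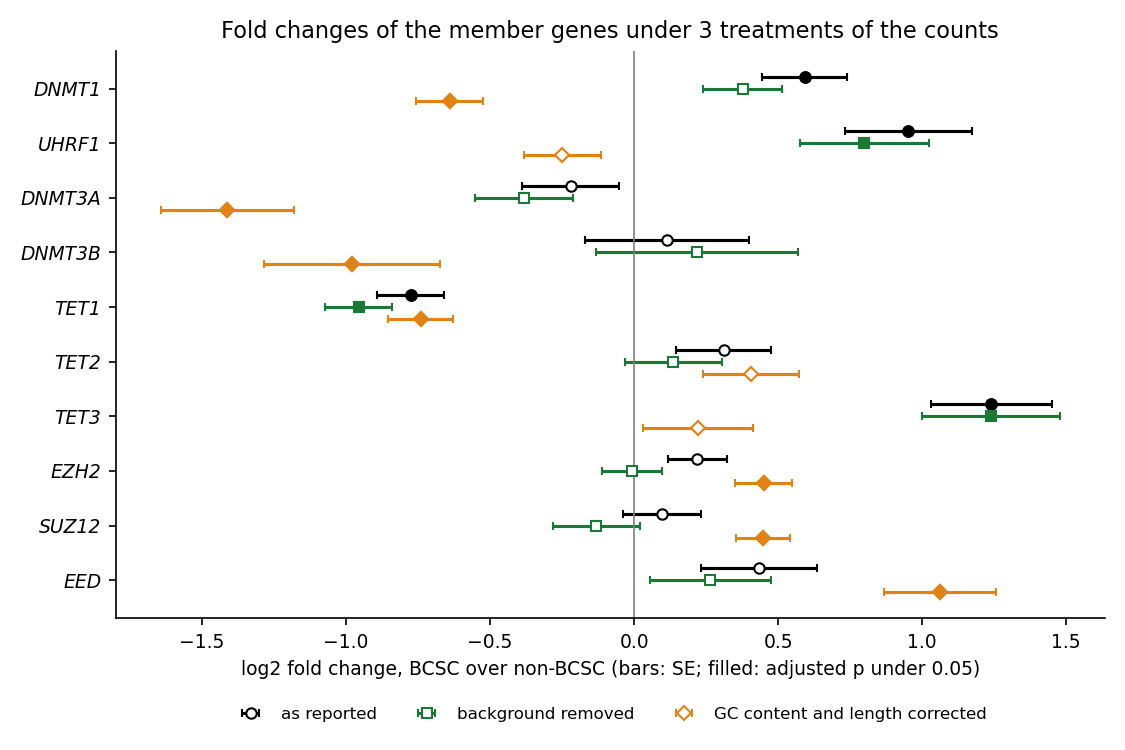
Log2 fold change of the 10 genes with its SE, as tested (black circles), with the background removed (green squares) and with GC content and length corrected (orange diamonds), filled where the adjusted p was under 0.05. TET1 stays between -0.96 and -0.74 under all 3 treatments, while DNMT1 runs from 0.59 to -0.64 and EED from 0.26 to 1.06.

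The counts were deposited per transcript, and the split between isoforms of a gene was far less steady than the sums. TPM takes each transcript's own length, so TPM and the ratios, shares and ranks built on it can move with that split. The common biological coefficient of variation was 1.02 for transcripts and 0.453 for genes. Of 149 transcripts of the 10 genes, 113 had counts, 57 were tested and 2 passed, while 0.81% of all 46176 tested transcripts passed. Both were transcripts of UHRF1. UHRF1-208 had 1378, 557 and 635 counts in the BCSC libraries, against 0 in each non-BCSC library, which is at least 190-fold higher against a floor of 3 counts per library (adjusted p = 0.0465 in edgeR). UHRF1-207 had 673, 400 and 437 counts against 0, 0 and 0, at least 114-fold higher (adjusted p = 0.0465). Neither passed when any 1 library was left out. Both entered the test through their BCSC counts alone, so they could hardly be called lower, and nothing is concluded from these calls. The gene sum of UHRF1 differed by 1.93-fold only.

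The non-BCSC counts of UHRF1 fell on another transcript in each library. UHRF1-205 held 864, 0 and 45 counts, UHRF1-201 held 0, 536 and 0, and UHRF1-206 held 16, 0 and 407. Since each library had its counts on a different protein-coding transcript of the gene, how far reads were moved between isoforms during assignment was not tested. In total, 7 of the 57 transcripts had an unadjusted p under 0.05 in edgeR, among them TET1-201, TET3-202 and EED-203. The share of all tested transcripts under that unadjusted level was not computed, so no conclusion is drawn from this number. EED-203 held 111, 184 and 60 counts in BCSC, against 0, 0 and 0 in non-BCSC. It entered the test through its BCSC counts alone and did not pass (adjusted p = 0.0683 in edgeR).

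TET1 and TET3 are nearly free of this uncertainty in the split between isoforms. TET1 has a single transcript on file, TET1-201, with 2274, 1877 and 1897 counts in BCSC, against 2488, 2474 and 1810 in non-BCSC, and its log2 fold change among transcripts was -0.70 (SE 0.16, adjusted p = 0.0864 in edgeR). TET3-202 held 98.8% of TET3 counts in BCSC and 98.1% in non-BCSC, with a log2 fold change of 1.33 (SE 0.31, adjusted p = 0.0887). By contrast, DNMT1-201 held 156, 565 and 1272 counts in BCSC, against 0, 1299 and 0 in non-BCSC. TET2-203 likewise held 2138, 1722 and 1612 counts against 0, 970 and 0. Protein-coding transcripts made up 61.4% ± 7.68 of EED counts in BCSC and 40.9% ± 15.7 in non-BCSC (SD, n = 3), and the groups overlapped.

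The genes that work with these enzymes were taken from 6 lists of 72 further genes. Of the 70 tested, 31 were higher in BCSC and 4 were lower in edgeR, against 15.3% and 14.6% of all genes, with a median log2 fold change of 0.56. Many of them are well counted, and of genes averaging 500 counts or more 42.0% passed in either direction, with a median of 0.18. The same shares are the background for the counts of each list below. With GC content and length corrected the counts were 16 higher and 8 lower. With the background removed they were 19 and 8, and the higher count was 19 without BCSC replicate 1 or without BCSC replicate 2.

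Among partners of DNA methylation, 3 of 10 tested were higher and 2 lower. UHRF2, the paralogue of UHRF1, was higher by a log2 fold change of 0.61 (adjusted p = 0.00527 in edgeR), and so were MAT2A (0.57, adjusted p = 0.00334), which makes the methyl donor S-adenosylmethionine, and AHCY (0.79, adjusted p = 0.0254), which clears its product. USP7, a deubiquitinase that binds UHRF1 and DNMT1, was lower (-0.59, adjusted p = 0.00343), as was the tRNA methyltransferase TRDMT1 (-0.71, adjusted p = 0.0163). TRDMT1 passed in 10 of 14 alternative treatments and in 2 of the 6 fits that left out 1 library. The chromatin remodeller HELLS (0.38, adjusted p = 0.112) and its partner CDCA7 (0.25, adjusted p = 0.191) did not pass.

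The list of readers of methylated DNA, which also holds relatives such as MBD3, gave 5 higher and 1 lower of 8. Its median was the highest of the 6 lists, at 1.09. ZBTB38 measured 451 to 483 CPM in BCSC and 193 to 204 CPM in non-BCSC, a log2 fold change of 1.21 (SE 0.09, adjusted p = 7.68e-05 in edgeR). ZBTB4 (1.20, adjusted p = 0.00824 in edgeR) and MBD3 (2.53, adjusted p = 0.0106) were also higher, although ZBTB4 turned to -0.28 with GC content corrected and MBD3, at 0.52 (adjusted p = 0.510), no longer passed. MBD2, a reader that recruits the NuRD complex, was lower (-0.57, adjusted p = 0.0167). MBD2 passed in 10 of 14 alternative treatments and in 2 of the 6 fits that left out 1 library. MBD3 had only 16 to 61 counts in the non-BCSC libraries.

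Partners of active demethylation gave 3 higher and 1 lower of 12. OGT, the glycosyltransferase that binds TET proteins, was higher (0.72, SE 0.10, adjusted p = 0.00171 in edgeR), as were the abasic-site protein HMCES (0.77, adjusted p = 0.0273) and the glycosylase SMUG1 (0.99, adjusted p = 0.0493). Of 14 alternative treatments, HMCES passed in 8 and SMUG1 in 2. IDH1, which makes the cosubstrate of the TET enzymes, measured 54.9 to 59.7 CPM in BCSC and 106 to 125 CPM in non-BCSC, a log2 fold change of -1.02 (SE 0.12, adjusted p = 0.00081). TDG, which excises the oxidised bases, did not pass (-0.20, adjusted p = 0.363) and was at 0.30 with GC content corrected.

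Of the PRC2 subunits beyond the core, 4 of 10 were higher and the other 6 did not pass. PHF19, a Polycomb-like subunit that reads H3 lysine 36 methylation, measured 88.1, 62.7 and 50.2 CPM in BCSC and 18.6, 17.4 and 18.2 CPM in non-BCSC. Its log2 fold change of 1.89 (SE 0.22, adjusted p = 0.000714 in edgeR) was 0.57 with GC content corrected, where it still passed (adjusted p = 0.0286). LCOR was higher as well (0.58, adjusted p = 0.00367), besides EZH1. The histone-binding subunits RBBP4 (0.28, adjusted p = 0.0699) and RBBP7 (-0.27, adjusted p = 0.0733), and JARID2 (-0.13, adjusted p = 0.468) and MTF2 (-0.21, adjusted p = 0.366), did not pass. EPOP, named after its values were seen because it completes the 4, had 89, 36 and 62 counts in BCSC, against 5, 0 and 5 in non-BCSC.

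Polycomb repressive complex 1 ubiquitinates histone H2A and binds the mark that PRC2 leaves. Of its 23 listed genes 10 were higher and 1, USP7, was lower. PHC2 (1.84, adjusted p = 0.00223 in edgeR), CBX6 (1.39, adjusted p = 0.00549) and CBX2 (1.52, adjusted p = 0.00803) were among the higher ones, and with GC content corrected PHC2 was at 0.43 (adjusted p = 0.116), CBX6 at -0.21 and CBX2 at -0.09. The ring subunits BMI1 (0.13, adjusted p = 0.553) and RNF2 (-0.40, adjusted p = 0.0734) did not pass. Of 8 genes that oppose Polycomb, 6 were higher and the other 2 did not pass. The demethylase KDM6B was at 1.66 (adjusted p = 0.0131), the methyltransferase NSD2 at 0.58 (adjusted p = 0.00603), and the BAP1 partners ASXL1 and ASXL2 at 0.78 (adjusted p = 0.0177) and 0.52 (adjusted p = 0.0123). With GC content corrected, KDM6B, NSD2 and ASXL1 were at -0.17, -0.13 and -0.02. The demethylase KDM6A did not pass (0.34, adjusted p = 0.0715).

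**Figure D5:**
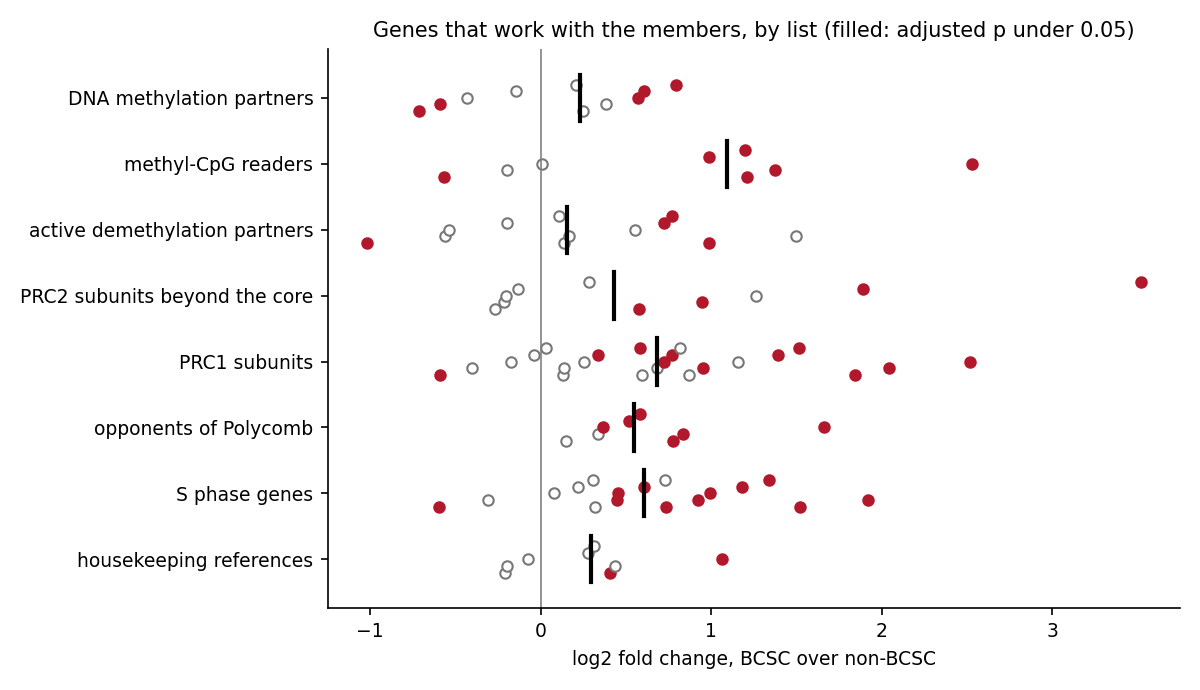
Log2 fold change (BCSC over non-BCSC) of each tested gene on the lists, with 1 row per list, filled where the adjusted p was under 0.05 and with a black bar at the list's median. The medians run from 0.15 for partners of active demethylation to 1.09 for methyl-CpG readers, and housekeeping genes have a median of 0.29.

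DNMT1 and UHRF1 are known to be made mainly around S phase, so S phase genes were set beside them. Of 17, 10 were higher and 1, the helicase subunit MCM3, was lower (-0.59, adjusted p = 0.0116 in edgeR), against 15.3% and 14.6% of all genes, with a median of 0.60. Of genes averaging 500 counts or more, 42.0% passed in either direction. MCM2 (1.34, adjusted p = 0.00635 in edgeR), CHAF1A (1.18, adjusted p = 0.00618), CDC6 (0.73, adjusted p = 0.0045) and RRM2 (0.60, adjusted p = 0.00262) were higher. With GC content corrected MCM2 was at 0.08 (adjusted p = 0.792) and CHAF1A at -0.10. PCNA, which tethers DNMT1 to the replication fork, measured 204 to 216 CPM in BCSC and 199 to 202 CPM in non-BCSC (0.08, adjusted p = 0.556). The proliferation marker MKI67 did not pass either (0.13, adjusted p = 0.412). The part of the cell cycle in the values of DNMT1 and UHRF1 was not tested. The housekeeping genes gave 2 higher of 8, namely POLR2A (1.06, adjusted p = 0.00255) and PPIA (0.40, adjusted p = 0.0402).

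Germline genes that DNA methylation is known to silence were read as possible targets. Of 14 listed, 10 were tested, 6 were lower in BCSC, against 14.6% of all genes, and the other 4 did not pass, with a median log2 fold change of -3.04. These genes had few counts in BCSC and reached the test through their non-BCSC counts, so they could hardly be called higher. The count lower was thus largely set by the filter, and nothing is concluded from it. Their levels were low throughout, with a summed 3.76 to 5.46 CPM in BCSC and 26.2 to 55.2 CPM in non-BCSC. BRDT had 0 counts in each BCSC library and 64, 23 and 53 in non-BCSC, and DDX4 had 7, 6 and 11 against 31, 98 and 75. The olfactory background was also higher in non-BCSC. There DAZL stood at 1.07 to 1.65 times that background for its length and TDRD1 at 0.978 to 1.10 times. BRDT stood at 1.68 to 5.62 times and DDX4 at 2.69 to 7.08 times. In BCSC, against its own lower background, DDX4 stood at 2.48 to 4.79 times, which overlaps non-BCSC. TDRD1 stood at 0.302 to 3.12 times in BCSC, DAZL at 0 to 1.99 and BRDT at 0. These multiples use the mean annotated length, 1392 bases for DDX4 and 1378 for BRDT. Their counted transcripts averaged 2681 and 3189 bases, which would bring both closer to the background. In non-BCSC, DAZL and TDRD1, chosen here after their values were seen, were close to the background, and its part in the fold changes was not tested.

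For 3 of the genes, the profile over the 6 libraries was compared with that of 10471 genes averaging 100 counts or more, as the root mean square (RMS) difference of centred log2(CPM + 1). Closest to DNMT1 were UBE2E3 (RMS 0.0486), SPRY4 (0.0546) and GGA2 (0.0621). Closest to EZH2 were VLDLR (0.0185), PPWD1 (0.0312) and YTHDC1 (0.0338), and closest to TET2 were ENSG00000286614 (0.0781), UBE2D3 (0.0796) and CPSF2 (0.0799). Between the 10 genes themselves, DNMT3B and EZH2 were most alike (0.0975), UHRF1 was closest to TET3 (0.215), and TET1 and TET3 were farthest apart (1.04).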

How the data were processed

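Long non-coding RNA sequencing was performed on 3 BCSC and 3 non-BCSC libraries. Per the labels, cDNA synthesis used random primers and dUTP strand marking, which keeps strand. The submitters' processing notes name HISAT2, featureCounts, DESeq2 and hg38, while the study's RNA-seq methods name hg19. Genes were therefore matched by identifier, and the coordinates printed are those of RefSeq on GRCh38.p14. The authors deposited estimated counts for each transcript, as whole numbers without normalization, and whether strand was used in counting is not given in the sources used here. Of 252618 transcripts, 249787 (98.9%) matched GENCODE release 44 and were summed per gene, 2827 did not match, and 4 with assembler identifiers were left out.

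Gene sums and transcripts were tested in edgeR 4.0.16 (R 4.3.3). TMM scaling, filterByExpr and the robust quasi-likelihood model with a single group term were used, with Benjamini-Hochberg adjustment over all features tested. Passing means an adjusted p under 0.05. Ratios were compared by exact permutation in scipy 1.17.1. For TPM, the count of each transcript was divided by its own length, scaled per library and summed per gene. The ratios with the background removed used count-weighted gene lengths instead. The scripts were tested on simulated data.

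The alternatives changed the scaling (RLE), the tool (DESeq2 1.42.0), the filter (any gene with 1 count, or 10 counts in each library), the terms (a replicate block) and the libraries (each left out in turn). Others were a lowess correction for GC content and length (span 0.3), subtraction of the count per kb over 407 olfactory receptor genes, thinning to the smallest library, and a fold above 2. The subtraction, and the multiples of that background, used the mean length of a gene's annotated transcripts. The member genes and the lists were chosen with earlier results of these data known. Named besides the 10 members were a set of genes given by name and, of each list, up to 4 with the smallest p that passed, had a mean of at least 50 counts and did not overlap between the groups. AHCY, EPOP, DNMT3L, MCM3 and the cell markers printed were picked after their values were seen. Depth ran from 9898588 to 21215352 counts, and the floors of 3 counts cover counting error only, since the reads carry no molecular identifiers. The 95% intervals come from the edgeR fit and include the spread between libraries. The correction for GC content was applied to the ratios after the data were seen. Some of the listed genes are not reported here by name.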

Additional observations from a re-analysis of the deposited data

How the results depend on the processing

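Of 714 alternative values for single genes, 603 kept their direction and side of the threshold, 58 no longer passed, 25 newly passed and 28 changed sign. The count of the 10 genes higher (3) ran from 1 to 3 when 1 library was left out, with 1 remaining without BCSC replicate 1, and was 1 with a fold above 2. The count lower (1) was 4 with GC content corrected and 0 with a fold above 2. Of the other listed genes, 31 higher became 16 under the GC correction, 19 with the background removed, 12 with a fold above 2, and 19 to 29 without single libraries. The 4 lower became 7 in DESeq2 and with RLE, 8 with the GC correction, the background removal or the minimum of 10 counts per library, 1 with a fold above 2, and 2 to 5 without single libraries. Over all genes, 3125 higher and 2978 lower became 1810 higher with a fold above 2, and 3236 higher and 5707 lower in DESeq2. GC correction gave 2348 and 3458. Leaving out single libraries gave 1784 to 3338 higher and 1391 to 3564 lower. Member transcripts higher (2) were 5 in DESeq2 and 0 with the minimum of 10 counts per library, with a replicate block and without any single library, and 1 was lower in DESeq2 and with at least 10 counts. Requiring 10 counts in every library moved the median of shared genes by -0.16.

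The genes that changed sign were, with GC content corrected, DNMT1 (-0.64), DNMT3B (-0.98), UHRF1 (-0.25), ZBTB4 (-0.28), TDG (0.30), MTF2 (0.29), RNF2 (0.28), CBX2 (-0.093), CBX6 (-0.21), KDM6B (-0.17), ASXL1 (-0.018), NSD2 (-0.13), CHAF1A (-0.098), POLR2A (-0.34) and MKI67 (-0.43). With at least 10 counts they were DNMT3B (-0.052), SUZ12 (-0.067), BMI1 (-0.032), PCNA (-0.090) and MKI67 (-0.036). With the background removed they were EZH2 (-0.0089), SUZ12 (-0.13), BMI1 (-0.095), PCNA (-0.16) and MKI67 (-0.11), with RLE PCNA (-0.016), and without BCSC replicate 3 SUZ12 and BMI1, whose values without single libraries ran from -0.057 to 0.23 and from -0.023 to 0.28. Apart from fewer features or libraries tested, the cause was not tested. Both ratios kept their direction when a library was left out or the background was removed, where 3 against 2 libraries give no usable p. With GC content and length corrected, an alternative chosen after seeing the data, the log2 difference of the DNMT to TET ratio turned from 0.53 to -0.60 and that of EZH2 to EZH1 went from -0.99 to -0.18.

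With the replicate number as a block, 6984 genes passed against 6103, and the same 4 member genes passed. The deviations of same-numbered libraries correlated at 0.179, 0.0143 and 0.219, and those of differently numbered libraries at -0.200 to 0.0544. BCSC replicate 2 correlated best with non-BCSC replicate 1. No source used here says that the numbers pair the libraries, so the block was kept as an alternative. A shared origin of same-numbered libraries was not tested. The depth limits DNMT3B most, whose mean was 163 counts.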
